A study of Mus musculus with 22 samples.

Results

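The livers of 6 liver-Flcn-/- mice on a methionine/choline deficient (MCD) diet (FLCN KO MCD) were compared with the livers of 6 Cre mice on chow (Cre Chow), the healthy reference of the study. The comparison took every library that carries either label, 12 of 22 libraries, and 14062 of 55573 genes, those whose counts averaged 10 or more across all 22. It shows which functions of the knockout liver lay at their healthy level after the diet and which did not. Liver mRNA was sequenced, 1 library per mouse, and reads were counted per gene. Knockout mice carried floxed Flcn alleles and Albumin-Cre, so the recombinase acts in hepatocytes and the other cells of the liver keep Flcn. The Cre mice carried Albumin-Cre with 2 wild-type Flcn alleles, so all 12 mice expressed the recombinase. All were C57BL/6 mice, 3 months old. The MCD diet, also high in fat and sucrose, began at 6 weeks of age and lasted 6 weeks, and the chow held 10 kcal percent fat. Genotype and diet both differ between the 2 groups and cannot be told apart in this contrast alone. Values of Cre mice on MCD (5 libraries) and of liver-Flcn-/- mice on chow (5 libraries) therefore stand beside it where they help.

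Folliculin (FLCN) works with its partners FNIP1 and FNIP2 on the Rag GTPases at the lysosome surface, where it lets mTORC1 hold the transcription factors TFEB and TFE3 in the cytoplasm. Without it these factors enter the nucleus and switch on genes of lysosomes. An MCD diet starves hepatocytes of the methionine and choline they need for phosphatidylcholine, the lipid that packs triglyceride into lipoproteins, and is used as a model of fatty liver with inflammation and fibrosis.

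Libraries held 15276157 to 19417246 counts on genes in Cre mice on chow and 16616132 to 20706657 in liver-Flcn-/- mice on MCD. Levels are in CPM, read counts relative to the library's size after edgeR's TMM scaling, as the median with the lowest and highest of the 6 livers. A log2 fold change is the level in liver-Flcn-/- MCD livers over that in Cre chow livers, with its standard error. Adjusted p-values come from edgeR's quasi-likelihood test. A gene rose or fell where its adjusted p was under 0.05, and it lay within 1.5-fold where the 95% interval of its fold change (not adjusted over genes) was inside that limit. A gene with a small and precise change can be in both classes, and a gene in neither could not be placed. CPM values compare the same gene between livers, not different genes, since they are not divided by gene length.

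Flcn (ENSMUSG00000032633, chr11:59791408-59810016, minus strand), the deleted gene, read 31.8 CPM (26.1 to 40.2) on chow and 26.6 CPM (17.6 to 32.6) in the knockout on MCD (log2 fold change −0.28, interval −0.62 to 0.05, adjusted p = 0.148), and the groups overlapped. In fits of each sex the log2 fold change of Flcn was −0.53 in males (adjusted p = 0.0382 in edgeR's test) and −0.05 in females (adjusted p = 0.876). Counts run over the whole gene and over all cells, while the deletion removes 1 exon in hepatocytes, so this level is a weak check of the labels. It was 20.0 CPM (16.7 to 24.2) in the knockout on chow, lower than in Cre chow livers (log2 fold change −0.63, adjusted p = 0.0249), and 31.7 CPM (18.2 to 39.9) in Cre mice on MCD, where the direct test against the knockout on MCD gave a log2 fold change −0.16, adjusted p = 0.567.

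Hepatocyte markers were present in every liver. The 5 hepatocyte markers summed to 122488 CPM (105077 to 153613) on chow and 66781 CPM (57664 to 77932) in the knockout on MCD, led by Alb, and all 5 fell. No marker of hepatocytes, stellate cells, endothelium or macrophages was at 0 throughout, whereas the adipocyte marker Lep was. Xist and Y-linked counts split each group into 3 males and 3 females, although the labels give no sex. The 3 Cre chow males are also the 3 libraries of that group with under 75% uniquely mapped reads in the study's library statistics, so sex and mapping cannot be told apart on chow. Among the females, up to 224 Y-linked counts were found in the knockout MCD livers and up to 180 in the Cre chow livers, against at least 3517 and 1906 in the males. The 4 skeletal muscle markers summed to 24.8 CPM in knockout MCD mouse 3 and to at most 1.46 CPM in the other 5. Fits without the low-mapping libraries and fits of each sex, 3 against 3, are given for some genes and lists only. What is called a fit of 1 sex is a contrast within a single fit of all 22 libraries, split by group and sex. The sexes thus share its estimate of the spread. The background for list counts in the fit of the males is 3228 higher and 3202 lower of 14062 genes. In the fit of the females it is 2866 and 2958.

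The knockout liver on MCD was far from a healthy liver. Of the 14062 genes, 3689 were higher (26.2%) and 3852 were lower (27.4%) than in Cre mice on chow, and 1344 (9.56%) and 1229 (8.74%) of these passed 2-fold. The 2 groups of 6 did not overlap for 2222 higher genes (15.8%) and 2340 lower genes (16.6%). For 5139 genes (36.5%) the level lay within 1.5-fold, of which 1208 (8.59% of those tested) had also passed the test with a small change, and 2590 (18.4%) could not be placed. In Cre mice on MCD, set against the same chow livers, 4121 genes (29.3%) were higher, 3968 (28.2%) were lower and 4695 (33.4%) lay within 1.5-fold. In liver-Flcn-/- mice on chow 776 (5.52%) were higher, 436 (3.1%) were lower and 7965 (56.6%) lay within 1.5-fold. The knockout livers on MCD differed directly from the Cre livers on MCD at 1134 higher (8.06%) and 1199 lower genes (8.53%).

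**Figure D1:**
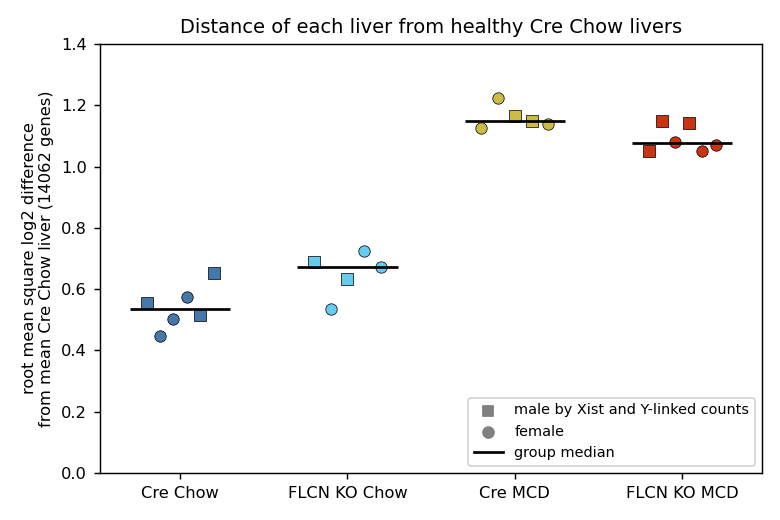
Distance of each of the 22 livers from the mean Cre chow liver, as the root mean square of the log2 difference over 14062 genes (y axis), by group (x axis), with squares for males and circles for females read from the counts and a line at the group median; each chow liver was set against the other 5. The 6 liver-Flcn-/- MCD livers lay between 1.05 and 1.15, above every chow liver of either genotype, and the 5 Cre MCD livers between 1.13 and 1.22.

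Per liver, the root mean square log2 difference from the mean Cre chow liver was 1.08 in the knockout on MCD (1.05 to 1.15), against 0.535 for Cre chow livers set against each other (0.448 to 0.653). It was 0.670 in the knockout on chow (0.536 to 0.723) and 1.15 in Cre mice on MCD (1.13 to 1.22). The knockout MCD and Cre MCD livers overlapped on this measure. In a knockout MCD liver 18.6 to 22.7% of genes lay more than 2-fold from the mean Cre chow liver (median 19.2%), against 3.17 to 7.98% in a Cre chow liver.

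All directions are relative to the typical gene. TMM sets the median log2 fold change near 0, and its factors were 0.815 to 0.889 in Cre chow livers and 1.06 to 1.16 in knockout MCD livers. Scaled to total counts alone, the median of all genes moved by 0.41 on the log2 scale, and 7713 genes were higher (82.2% of calls, against 48.9% with TMM) and 1665 lower. Fewer genes then lay within 1.5-fold, 3602. The medians of 12 lists changed sign with that scaling: autophagy, serine and folate, glucose, NRF2, antigen presentation, endothelial, choline, circadian, heat shock, lymphocyte, adipocyte and sex chromosome genes. Counts per list moved as well, from 27 to 17 lower interferon-stimulated genes, from 10 to 23 higher autophagy genes and from 12 to 22 higher genes of fatty acid oxidation.

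**Figure D2:**
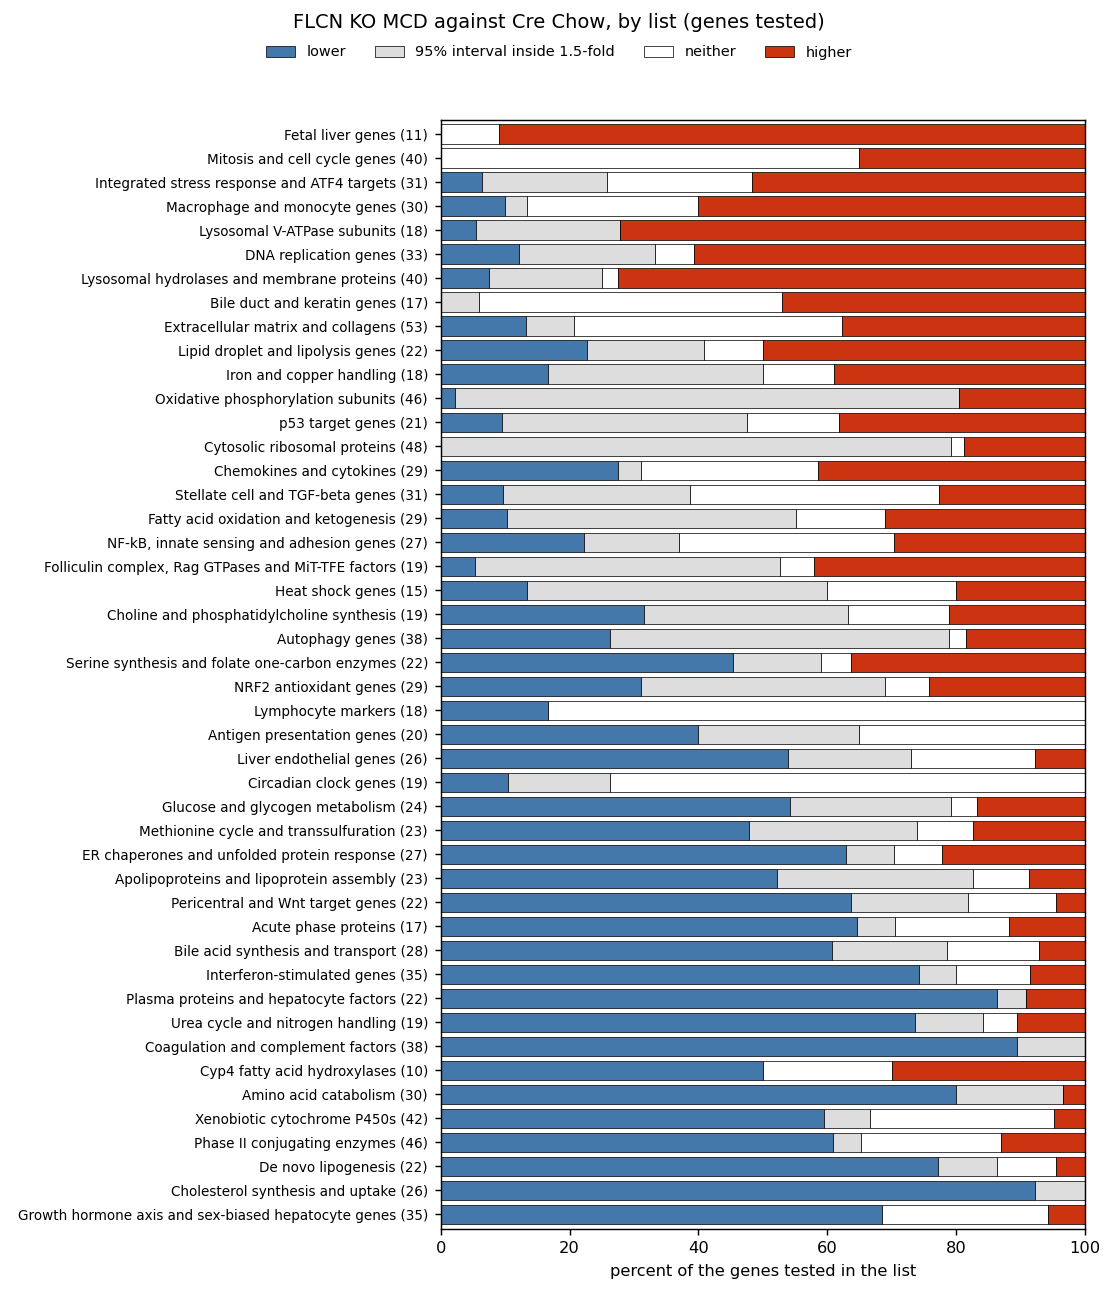
Share of the tested genes of each list (x axis, percent; number tested in brackets) that fell, that lay within 1.5-fold, that could be placed in neither class, or that rose in liver-Flcn-/- MCD livers against Cre chow livers; genes that passed the test with an interval inside 1.5-fold are counted as within. Lists are ordered by their median log2 fold change, from the highest down. Cholesterol synthesis and complement lie at the lower end, ribosomal proteins and oxidative phosphorylation are mostly grey, and fetal liver genes and lysosomal genes lie at the upper end.

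Most genes for cytosolic ribosomal proteins and for subunits of oxidative phosphorylation lay within 1.5-fold of the healthy level. Of 48 cytosolic ribosomal protein genes tested, 38 lay within 1.5-fold (background 36.5%), and of 46 nuclear genes for subunits of oxidative phosphorylation 36 did. The medians of both lists were slightly above 0, at 0.20 and 0.26, and 16 and 24 of their members rose (background 26.2%), with 0 and 0 past 2-fold. The ribosomal count was 7 without the low-mapping chow libraries, 10 without Cre chow mouse 3 and 9 without knockout MCD mouse 2. This closeness is relative to the typical gene: with total counts as scaling the medians became 0.61 and 0.67, and 45 and 44 genes rose. Rps6, a protein of the small subunit, had 168 CPM (144 to 188) on chow and 182 CPM (164 to 207) in the knockout on MCD (interval −0.09 to 0.34), while Rpl3 rose by 0.39 with a call that was lost without the low-mapping chow libraries. Ndufa4, a subunit of the respiratory chain, had 370 CPM (304 to 409) on chow and 372 CPM (322 to 422) in the knockout on MCD, with a 95% interval of the log2 fold change of −0.16 to 0.24. The groups overlapped almost completely. Sdha, a subunit of complex II, read 563 CPM (514 to 615) and 506 CPM (434 to 541), with an adjusted p of 0.0882, and mt-Nd4, a mitochondrially encoded subunit of complex I, 5939 CPM (5220 to 6529) and 5327 CPM (4558 to 7419), with an interval of −0.35 to 0.27. Cox4i1 of cytochrome oxidase did rise, from 459 CPM (421 to 526) to 697 CPM (565 to 820) (log2 fold change 0.58 ± 0.12, adjusted p = 2.41e-04).

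Oxidative phosphorylation also separated the knockout from Cre mice on the same diet. In Cre mice on MCD, 21 of the 46 genes were lower than on chow (background 28.2%) and the median was −0.14. Directly compared, 34 of 46 were higher in the knockout MCD livers than in the Cre MCD livers, where the background of higher genes was 8.06%. Sdha, which fell in Cre mice on MCD (log2 fold change −0.62), was higher in the knockout on MCD than in them (log2 fold change 0.46, adjusted p = 9.24e-04).

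A few abundant hepatocyte genes, named because they are among the most abundant within 1.5-fold, also lay at the healthy level, although most members of the coagulation, apolipoprotein and methionine cycle lists rose or fell. Apob, the backbone of very low density lipoprotein, had 4846 CPM (3964 to 5631) on chow and 4680 CPM (3734 to 5173) in the knockout on MCD, and the groups overlapped (interval −0.34 to 0.14). Kng1, which encodes kininogen, had 2845 CPM (2486 to 3116) and 2532 CPM (2150 to 3804), with an interval of −0.33 to 0.16. Mat1a, the liver enzyme that makes S-adenosylmethionine, had 3444 CPM (2081 to 4088) and 3764 CPM (3258 to 4152), with an interval of −0.17 to 0.55. In each of these 3 genes the ranges of the groups crossed. Eef1a1, an elongation factor of translation, varied little between livers, at 3112 CPM (3030 to 3236) and 3050 CPM (2877 to 3256). Apoe, an apolipoprotein, passed the test with an interval still inside 1.5-fold, at a log2 fold change of 0.29. The Apoe call was lost in 10 of the 12 fits that left out 1 library.

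In fatty acid oxidation more genes rose than fell. Of 29 genes, 13 lay within 1.5-fold (background 36.5%), 12 rose (background 26.2%) and 4 fell (background 27.4%), with a median of 0.16. Autophagy genes were also mixed. Of 38 tested, 20 lay within 1.5-fold, 10 rose and 12 fell (median −0.13, and 0.28 with total counts as scaling). The shares that rose and fell were near the backgrounds of 26.2% and 27.4%, and 7 fell without the low-mapping chow libraries. Sqstm1, the cargo receptor p62, rose from 461 CPM (380 to 536) to 767 CPM (743 to 947) (log2 fold change 0.83 ± 0.13, adjusted p = 1.68e-05), Map1lc3b, an LC3 gene, from 62.9 CPM (60.5 to 87.6) to 98.7 CPM (79.3 to 108), and Depp1, which promotes autophagy, from 71.2 CPM (50.6 to 91.4) to 169 CPM (108 to 321). Of heat shock genes, 7 of 15 lay within 1.5-fold (background 36.5%), among them the chaperone Hspa8 at 439 CPM (400 to 702) and 524 CPM (455 to 562). Of 21 p53 target genes 8 lay within 1.5-fold, a share near the background of 36.5%, and 9 rose (background 26.2%). Of 18 genes of iron and copper handling 6 lay within 1.5-fold, also near the background, and 9 rose. Of 19 clock genes 0 rose (background 26.2%), 3 fell (27.4%) and 14 could not be placed (18.4%). Arntl, the clock factor BMAL1, read 26.3 CPM (1.12 to 36.5) and 16.2 CPM (6.06 to 21.7), and Nfil3, a repressor of the clock, 52.1 CPM (14.5 to 76.8) and 14.9 CPM (7.04 to 21.9).

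Most genes of scar-forming cells did not pass the test, and many had wide intervals. Of 31 genes of stellate cells and TGF-beta signalling, 9 lay within 1.5-fold, 7 rose, 3 fell and 12 could not be placed (median 0.18). Over all genes tested 36.5% lay within 1.5-fold, 26.2% rose, 27.4% fell and 18.4% could not be placed, so the share that rose was near the background and the share within 1.5-fold was below it. A fit of the males called 12 higher and 0 lower and one of the females 4 higher and 4 lower. Over all 14062 genes these fits called 3228 higher and 3202 lower in males and 2866 and 2958 in females. Acta2, the actin of activated stellate cells, had 1.47 CPM (0.803 to 3.99) on chow and 1.69 CPM (0.954 to 3.68) in the knockout on MCD. The groups overlapped fully, yet the 95% interval of the log2 fold change, −1.11 to 1.16, does not exclude a change of 2-fold in either direction. Des, an intermediate filament of stellate and muscle cells, had 4.97 CPM (3.78 to 6.51) and 5.10 CPM (4.06 to 8.76), with an interval of −1.18 to 1.38, and its highest value came from mouse 3, the library with muscle RNA. The 5 stellate markers summed to 85.8 CPM (53.6 to 103) on chow and 94.8 CPM (73.4 to 106) in the knockout on MCD. In bulk tissue, fewer cells of a type and less RNA per cell cannot be told apart.

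The matrix itself was disturbed in part. Of 53 matrix and collagen genes, 20 rose (background 26.2%), 7 fell (27.4%), 4 lay within 1.5-fold (36.5%) and 22 could not be placed (18.4%), with a median of 0.34. With low mapping as a covariate 13 rose. The sexes differed in this count, with 30 higher and 6 lower in a fit of the males and 9 higher and 11 lower in a fit of the females. The shares in females were near those over all 14062 genes, 2866 higher and 2958 lower (3228 and 3202 in males). For 5 genes the direct test of the difference between the sexes was passed (36 at an unadjusted p under 0.05). Col3a1, a fibrillar collagen, read 27.4 CPM (16.3 to 42.6) and 25.4 CPM (11.6 to 40.6), with an interval of −0.91 to 0.53. Col1a1 read 3.98 CPM (2.77 to 8.88) and 8.58 CPM (4.15 to 14.0) (log2 fold change 0.91 ± 0.38, adjusted p = 0.0508). Neither passed the test. Timp1, an inhibitor of matrix proteases, was at no more than 3 counts in any Cre chow liver and reached 0.664 CPM (0.334 to 1.38) in the knockout on MCD, at least 3.61-fold higher when set against 3 counts. Mmp12, the elastase of macrophages, rose from 0.521 CPM (0.0791 to 0.609) to 28.2 CPM (9.19 to 56.2) (log2 fold change 6.17 ± 0.48, adjusted p = 8.79e-10). Col15a1, a collagen of the basement membrane zone, fell from 13.3 CPM (10.4 to 21.4) to 1.52 CPM (0.573 to 3.18) (log2 fold change −3.10 ± 0.38, adjusted p = 5.44e-07).

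Cre mice on MCD stood further out in matrix genes. Set against the same chow livers, 37 of the 53 matrix genes and 17 of the 31 stellate genes were higher in Cre MCD livers (background 29.3%), with medians of 1.24 and 0.71. In the direct test, 26 and 12 of these genes were lower in the knockout on MCD than in Cre mice on MCD, against a background of 8.53%. Acta2 was among them (log2 fold change −2.07, adjusted p = 0.0111), as were Col1a1 (log2 fold change −1.76, adjusted p = 0.00309) and Col3a1 (log2 fold change −1.55, adjusted p = 0.0049). The 4 muscle markers summed to 1141 CPM in Cre MCD mouse 3 and 57.2 CPM in Cre MCD mouse 4, and the 5 stellate markers to 273 CPM in mouse 3 against 87.6 to 120 CPM in the other 4. Without mouse 3, a fit chosen after seeing the data, 15 matrix and 8 stellate genes were lower in the knockout (background 8.31%), and the log2 fold changes were −1.65 for Acta2, −1.62 for Col1a1 and −1.30 for Col3a1, all still past the test (adjusted p 0.0382, 0.00794 and 0.0165 in edgeR's test). Des, which muscle also expresses, did not keep its call, with a log2 fold change of −2.73 (adjusted p = 0.00475) with mouse 3 and −0.68 (adjusted p = 0.0736) without it.

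Lipid synthesis genes were low. Of 26 genes of cholesterol synthesis and uptake, 24 fell, against a background of 27.4%, and the other 2 lay within 1.5-fold (median −1.79). Tm7sf2, a sterol reductase, fell from 171 CPM (143 to 213) to 14.0 CPM (12.0 to 15.4) (log2 fold change −3.64 ± 0.15, adjusted p = 2.75e-13). The groups did not overlap. Sqle and Hmgcs1, other enzymes of the pathway, had log2 fold changes of −1.18 and −1.82. In the direct test 11 of the 26 cholesterol genes were lower in the knockout than in Cre mice on MCD (background 8.53%) and 0 were higher. The average log2 level of the list, relative to Cre chow, was −1.84 to −1.31 in the knockout MCD livers. It was −1.48 to −0.75 in the Cre MCD livers, so the groups overlapped.

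De novo fatty acid synthesis was low too. Of 22 genes, 17 fell and 15 of these by more than 2-fold (background 8.74%). Scd1 (ENSMUSG00000037071, chr19:44394455-44407879, minus strand) encodes the desaturase that makes oleate. It had 8930, 10459 and 24868 CPM as the lowest, median and highest Cre chow liver and 38.0, 91.0 and 337 CPM in the knockout on MCD, an 83.6-fold lower level (log2 fold change −6.39 ± 0.74, adjusted p = 2.57e-07). Every knockout MCD liver lay below every chow liver, as the plot of levels in each liver shows. Fasn, the fatty acid synthase, fell from 1372 CPM (465 to 2368) to 89.5 CPM (60.4 to 141) (log2 fold change −3.80 ± 0.44, adjusted p = 2.29e-07). Pnpla3, a lipid droplet lipase, fell from 8.88 CPM (0.562 to 23.1) to at most 3 counts in every knockout MCD liver, at least 69.4-fold lower when set against 3 counts. Acacb, the acetyl-CoA carboxylase at the mitochondrion, fell less, from 199 CPM (118 to 299) to 128 CPM (109 to 159) (log2 fold change −0.68 ± 0.22, adjusted p = 0.0144), and was higher than in Cre mice on MCD (log2 fold change 1.80, adjusted p = 3.61e-05). Its fall was not called in a fit of the males (adjusted p = 0.139 in edgeR's test).

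**Figure D3:**
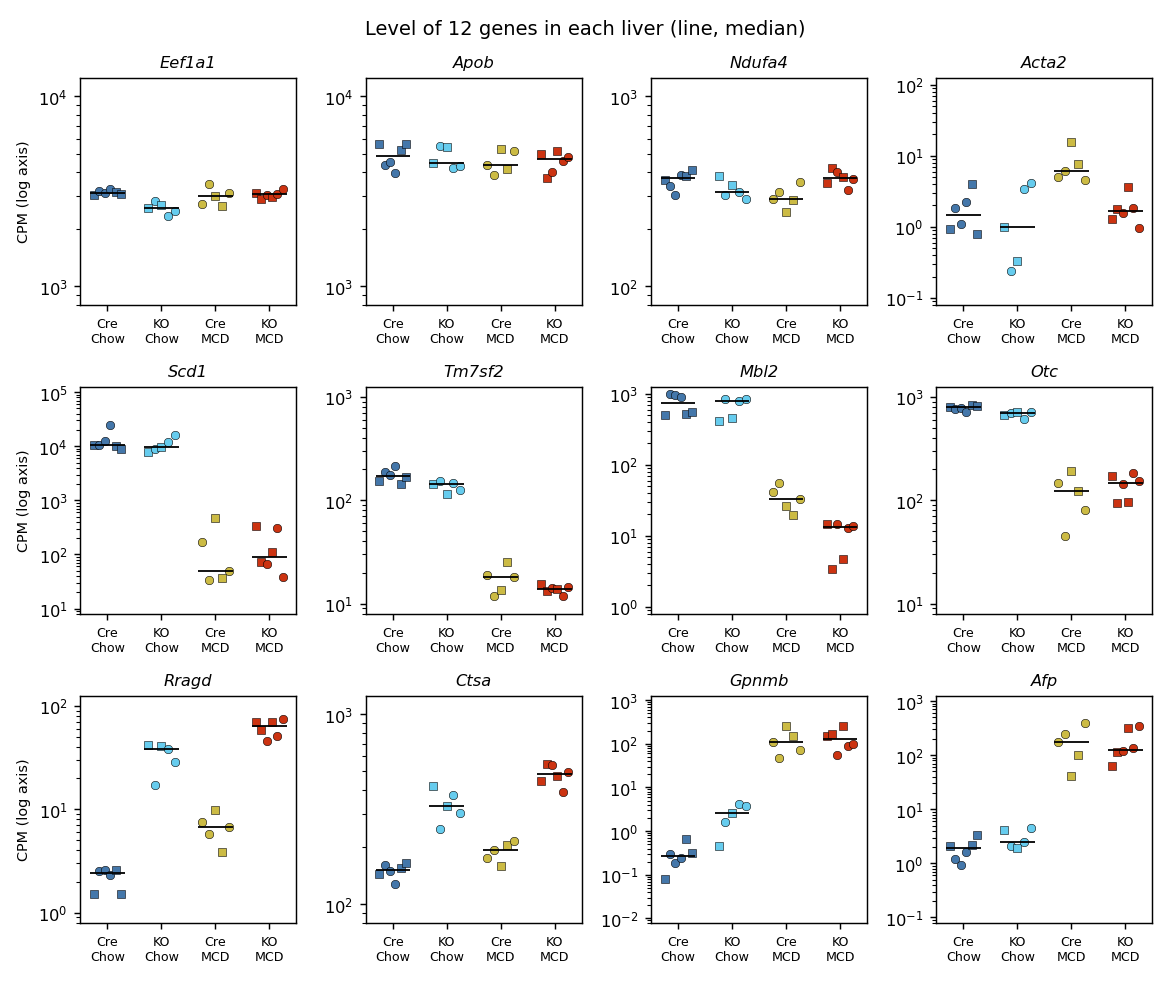
Level of 12 genes in each liver (y axis, CPM on a log axis; x axis, the 4 groups; squares, males; circles, females read from the counts; lines, group medians). Eef1a1, Apob, Ndufa4 and Acta2 overlap between Cre chow and liver-Flcn-/- MCD livers, Scd1, Tm7sf2, Mbl2 and Otc lie lower in all 6 knockout MCD livers, and Rragd, Ctsa, Gpnmb and Afp lie higher in all 6.

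More genes of lipid storage rose than fell. Of 22 lipid droplet genes, 11 rose (background 26.2%), 5 fell and 4 lay within 1.5-fold. Plin4 and Cidec coat lipid droplets. Plin4 rose from 1.73 CPM (1.69 to 2.41) to 117 CPM (105 to 135) (log2 fold change 5.99 ± 0.30, adjusted p = 1.55e-12) and Cidec from 0.887 CPM (0.237 to 1.61) to 50.3 CPM (34.4 to 71.9) (log2 fold change 5.83 ± 0.53, adjusted p = 8.06e-09). Plin2, the main droplet coat of hepatocytes, moved less, from 551 CPM (350 to 750) to 783 CPM (542 to 1108) (log2 fold change 0.54 ± 0.19, adjusted p = 0.019), its groups overlapped, and its call was lost in 2 of the 12 fits that left out 1 library and in a fit of the females. Cd36, a fatty acid transporter, rose from 36.6 CPM (14.9 to 76.6) to 527 CPM (417 to 634), and Pnpla2, which encodes the triglyceride lipase ATGL, from 54.5 CPM (46.8 to 106) to 145 CPM (117 to 164). Fabp1, the fatty acid carrier of hepatocytes, fell from 5720 CPM (3645 to 10094) to 1407 CPM (1241 to 2128). Of 23 apolipoprotein and lipoprotein assembly genes 12 fell (background 27.4%), 3 rose and 7 lay within 1.5-fold. Apoa4, an apolipoprotein that rises with liver triglyceride, rose from 560 CPM (392 to 903) to 10172 CPM (5809 to 17344) (log2 fold change 4.22 ± 0.40, adjusted p = 1.64e-08).

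Plasma protein, coagulation and complement genes were low. Of 22 plasma protein and hepatocyte factor genes, 20 fell (background 27.4%; median −0.85), and of 38 coagulation and complement genes, 34 fell, 17 of them by more than 2-fold (background 8.74%; median −0.94). Alb fell from 98713 CPM (76112 to 126083) to 56347 CPM (46620 to 65365) (log2 fold change −0.83 ± 0.17, adjusted p = 2.49e-04) and Ttr, a carrier of thyroid hormone and retinol, from 8202 CPM (7092 to 10526) to 3784 CPM (3393 to 4166) (log2 fold change −1.14 ± 0.10, adjusted p = 6.81e-09). Fga, a chain of fibrinogen, had a log2 fold change of −1.32 and C3, the hub of complement, one of −0.78. Alb and Ttr are themselves among the 5 summed hepatocyte markers given above, and Alb leads the sum. The sum is therefore no separate measure of hepatocyte content, whose part in the result was not tested. Mbl2 (ENSMUSG00000024863, chr19:30232942-30239687, plus strand) encodes a mannose-binding lectin of the complement list. It read 736 CPM (497 to 986) on chow and 13.3 CPM (3.44 to 14.9) in the knockout on MCD (log2 fold change −6.11 ± 0.41, adjusted p = 1.05e-10), and was lower than in Cre mice on MCD as well (log2 fold change −1.72, adjusted p = 0.00193). Hnf4a, the transcription factor that many hepatocyte genes depend on, fell by 0.45 on the log2 scale, with overlapping groups, and was no longer called without the low-mapping chow libraries.

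Most acute phase genes were low as well. Of 17 tested, 11 fell (background 27.4%) and 2 rose (background 26.2%). The average log2 level of the list, relative to Cre chow, was 1.05 in Cre chow mouse 1 and −0.75 to 0.26 in the other chow livers. It was −0.83 to −0.41 in the knockout MCD livers, so the groups overlapped. Saa2, an acute phase serum amyloid, had 42.5 CPM (18.6 to 1437) on chow and 4.84 CPM (1.95 to 7.79) in the knockout on MCD (log2 fold change −5.98 ± 1.14, adjusted p = 1.48e-04), and its spread on chow was wide. Cre chow mouse 1 was highest, and without it the log2 fold change of Saa2 was −4.09. Over the alternatives that were not added later it ran from −6.23 to −2.82, the last without the low-mapping chow libraries. Apcs, the serum amyloid P component, went the other way, from 154 CPM (98.1 to 226) to 1903 CPM (1600 to 2405) (log2 fold change 3.65 ± 0.22, adjusted p = 2.25e-11).

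Nitrogen and amino acid metabolism was low. Of 30 genes of amino acid catabolism, 27 fell (background 27.4%) and 19 of these passed 2-fold (background 8.74%), with a median of −1.23. Haao, of tryptophan breakdown, fell from 704 CPM (635 to 742) to 84.6 CPM (58.0 to 101) (log2 fold change −3.07 ± 0.18, adjusted p = 1.22e-11), and Tdo2, the first step of that route, from 1893 CPM (1151 to 2302) to 532 CPM (372 to 733). Of 19 urea cycle and nitrogen genes, 14 fell (background 27.4%). Otc, the ornithine transcarbamylase of the urea cycle, fell from 791 CPM (723 to 840) to 148 CPM (93.7 to 184) (log2 fold change −2.49 ± 0.24, adjusted p = 2.35e-08) and Cps1 and Ass1, other enzymes of the cycle, by 1.06 and 1.30 on the log2 scale. Glul, the glutamine synthetase of hepatocytes around the central vein, fell from 1410 CPM (1170 to 1627) to 572 CPM (415 to 782).

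Genes of the methionine cycle moved in both directions, 4 of 23 up (background 26.2%) and 11 down (background 27.4%). Mat2a, the methionine adenosyltransferase of most tissues other than liver, rose from 67.8 CPM (60.7 to 111) to 410 CPM (368 to 470) (log2 fold change 2.47 ± 0.17, adjusted p = 1.19e-10), while Mat1a lay within 1.5-fold. Gnmt, which burns off excess S-adenosylmethionine, fell from 2127 CPM (1713 to 2602) to 407 CPM (316 to 513) (log2 fold change −2.36 ± 0.15, adjusted p = 4.76e-11) and lay below Cre mice on MCD (log2 fold change −0.82, adjusted p = 7.25e-04). Pemt, which methylates phosphatidylethanolamine to phosphatidylcholine, had a log2 fold change of 0.41 (adjusted p = 0.00784) with overlapping groups, on a list of choline and phosphatidylcholine genes where 4 of 19 rose and 7 fell (backgrounds 26.2% and 27.4%). Its call was lost without the low-mapping chow libraries. In the list of serine synthesis and folate enzymes 8 of 22 rose and 10 fell, against the same backgrounds. With the replicate number as a block 5 rose, and also 5 with a stricter count filter. Psat1, of serine synthesis, rose from 0.762 CPM (0.486 to 1.58) to 38.3 CPM (29.0 to 62.6) (log2 fold change 5.52 ± 0.42, adjusted p = 6.81e-10), and Aldh1l1, a folate dehydrogenase, fell from 2212 CPM (1738 to 2659) to 539 CPM (368 to 595) (log2 fold change −2.09 ± 0.15, adjusted p = 2.10e-10).

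Several glucose genes were lower. G6pc, the last step of glucose release, fell from 523 CPM (273 to 684) to 153 CPM (55.1 to 206) (log2 fold change −1.86 ± 0.39, adjusted p = 4.08e-04) and Pck1 of gluconeogenesis from 1694 CPM (1458 to 2802) to 648 CPM (502 to 1056). Over the 24 genes of the list, 14 fell (background 27.4%) and 5 rose, the last a share near the background of 26.2% (median −0.41). With total counts as scaling 8 fell and 7 rose (median 0.01).

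Bile acid and drug metabolism genes were mostly low. Of 28 genes of bile acid synthesis and transport, 17 fell (background 27.4%). Cyp7a1, the rate-limiting enzyme of synthesis, read 103 CPM (51.3 to 222) and 80.5 CPM (41.9 to 113) and did not pass the test, with an interval of −1.22 to 0.03. Cyp8b1, which sets the share of cholic acid, fell from 405 CPM (237 to 590) to 125 CPM (95.4 to 184). The uptake transporter Slc10a1 fell from 875 CPM (781 to 934) to 145 CPM (104 to 235) (log2 fold change −2.46 ± 0.20, adjusted p = 2.33e-09) and the canalicular export pump Abcb11 from 926 CPM (700 to 1007) to 394 CPM (322 to 451). Slc51b, part of the exporter back to blood, rose from 1.30 CPM (0.643 to 1.70) to 11.8 CPM (7.57 to 13.8) (log2 fold change 3.17 ± 0.36, adjusted p = 2.24e-07). Slco1a1, a sex-biased uptake transporter, fell from 295 CPM (34.8 to 911) to 0.292 CPM (0.0977 to 2.49) (log2 fold change −8.98 ± 1.31, adjusted p = 6.27e-06). Its log2 fold change was −9.97 without knockout MCD mouse 4 and −6.41 without the low-mapping chow libraries.

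Of 42 xenobiotic cytochrome P450 genes, 25 fell (background 27.4%) and 2 rose (background 26.2%), and of 46 conjugating enzymes, 29 fell and 6 rose. Without the low-mapping chow libraries 11 conjugating enzymes rose. In a fit of the males 11 P450 genes rose and 18 fell, and in the females 2 rose and 25 fell. Over all 14062 genes these fits called 3228 higher and 3202 lower in males and 2866 and 2958 in females. The share of P450 genes that rose in males was near that of all genes. Many of these belong to families of near-identical copies, so counts of single members are uncertain. Cyp2c54 fell from 257 CPM (207 to 321) to 2.46 CPM (0.603 to 3.68) (log2 fold change −6.84 ± 0.45, adjusted p = 7.28e-11) and Cyp1a2, which metabolises caffeine, from 1061 CPM (580 to 1224) to 220 CPM (163 to 304). Cyp2e1, an alcohol-metabolising enzyme, fell by 0.44 with overlapping groups, a call lost without the low-mapping chow libraries and in 4 of the 12 fits that left out 1 library. Sult2a8, a bile acid sulfotransferase, fell from 896 CPM (464 to 1311) to 51.1 CPM (43.0 to 73.8), while Sult1e1, which inactivates oestrogens, rose from 3.84 CPM (0.723 to 19.6) to 149 CPM (102 to 262) (log2 fold change 4.72, and 5.54 without Cre chow mouse 3). Among 29 NRF2 and antioxidant genes 7 rose and 11 lay within 1.5-fold, shares near the backgrounds of 26.2% and 36.5%, and 12 fell (background 27.4%). Cat, the catalase of peroxisomes, fell from 3300 CPM (2679 to 3983) to 1074 CPM (893 to 1172) (log2 fold change −1.66 ± 0.11, adjusted p = 1.40e-10) and Hmox1, haem oxygenase, rose from 18.2 CPM (16.7 to 25.7) to 45.4 CPM (34.7 to 51.8) (log2 fold change 1.19 ± 0.12, adjusted p = 3.76e-08).

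Genes of hepatocytes at the central vein were low, also against Cre mice on the same diet. Of 22 pericentral and Wnt target genes, 14 fell (background 27.4%), and 10 were lower than in Cre mice on MCD in the direct test (background 8.53%). Rgn, regucalcin, fell from 1869 CPM (1652 to 2307) to 176 CPM (119 to 214) (log2 fold change −3.49 ± 0.22, adjusted p = 4.35e-11) and Lgr5, a Wnt target and receptor, from 7.24 CPM (5.82 to 8.38) to 3.63 CPM (1.89 to 4.54) (log2 fold change −1.04 ± 0.24, adjusted p = 0.00101). Lgr5 was lower than in Cre mice on MCD too (log2 fold change −1.30, adjusted p = 0.00105). Axin2, the common readout of Wnt signalling, lay within 1.5-fold, at 10.2 CPM (7.87 to 11) and 9.63 CPM (7.97 to 11).

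Lysosomal genes stood above the healthy level. Of 40 genes of lysosomal hydrolases and membrane proteins, 30 rose (background 26.2%) and 5 fell (median 0.56), and of 18 V-ATPase subunits, the pump that acidifies the lysosome, 14 rose (median 0.83). Many also lay above Cre mice on MCD in the direct test, 20 of 40 and 13 of 18 (background 8.06%). Lysosomal genes of the knockout on chow were set against the same Cre chow livers, where 16 and 9 of these genes were higher (background 5.52%). In Cre mice on MCD 20 and 11 were higher than on chow (background 29.3%) and 9 and 1 lower (background 28.2%). The list medians were 0.37 and 0.29 in the knockout on chow and 0.24 and 0.35 in Cre mice on MCD.

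Ctsl, which encodes the protease cathepsin L, had 1168 CPM (796 to 1301) on chow and 5640 CPM (5078 to 6527) in the knockout on MCD (log2 fold change 2.33 ± 0.17, adjusted p = 4.26e-10). Ctsa, cathepsin A, rose from 152 CPM (128 to 165) to 485 CPM (391 to 548) (log2 fold change 1.68 ± 0.12, adjusted p = 1.72e-10) and Hexa, a ganglioside hydrolase, from 52.8 CPM (42.2 to 59.1) to 198 CPM (159 to 205) (log2 fold change 1.89 ± 0.12, adjusted p = 7.54e-11). In all 3 the groups did not overlap. Ctsd, cathepsin D, had a log2 fold change of 0.98, and the V-ATPase subunits Atp6v0d1 and Atp6v1b2 had 0.82 and 1.5.

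Of 19 genes of the folliculin complex, the Rag GTPases and the TFE factors 8 rose (background 26.2%), 3 fell and 9 lay within 1.5-fold (background 36.5%). Rragd (ENSMUSG00000028278, chr4:32983037-33022180, plus strand), a Rag GTPase, had 1.5, 2.43 and 2.59 CPM as the lowest, median and highest Cre chow liver and 45.5, 63.9 and 74.3 CPM in the knockout on MCD (log2 fold change 4.80 ± 0.25, adjusted p = 3.56e-12). It was 27.9-fold higher than in the healthy liver and lay above Cre mice on MCD (log2 fold change 3.18, adjusted p = 2.46e-08). Its log2 fold change in the knockout on chow was 3.91. Rragc rose from 47.6 CPM (41.8 to 54.2) to 94.4 CPM (86.4 to 112), Fnip1 from 34.9 CPM (22.2 to 52.9) to 68.3 CPM (57.7 to 78.5) and Fnip2 from 23.4 CPM (18.5 to 28.9) to 43.1 CPM (34.1 to 65.4). Ppargc1a, a coactivator of mitochondrial genes, rose from 10.8 CPM (10.5 to 18.5) to 39.7 CPM (30.4 to 53.1) (log2 fold change 1.65 ± 0.20, adjusted p = 5.00e-07).

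Promoters of 8 lists, named here where they bear on the motif, were searched for short motifs in the 300 bases from 250 before to 50 after the gene start (RefSeq, GRCm38.p6), on both strands. Windows of 30 bases are shown for 6 genes, 5′ to 3′ on the gene's strand, with 1 match in capitals. TCACGTGA, the E-box core of the element bound by TFEB and TFE3, was in 1.01% of 27025 promoters, in 1.93% of the 10546 promoters of genes tested, in 3 of 32 matched promoters of lysosomal hydrolases and membrane proteins and in 3 of 12 of V-ATPase subunits. It was in 0 of 18 of the folliculin, Rag GTPase and TFE list.
Atp6v0d1 (chr8:105566050-105566079, minus strand): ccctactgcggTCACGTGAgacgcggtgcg
Ctsd (chr7:142387908-142387937, minus strand): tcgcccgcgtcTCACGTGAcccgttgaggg
TGATGCAA, the core of the element read by ATF4, was in 0.929% of all promoters, in 0.654% of those of genes tested and in 6 of 27 matched promoters of the stress response list, and in 0 of 18 of the serine synthesis and folate list. In both windows it lies on the other strand and so reads TTGCATCA.
Nupr1 (chr7:126625562-126625591, minus strand): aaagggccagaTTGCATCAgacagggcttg
Fgf21 (chr7:45615611-45615640, minus strand): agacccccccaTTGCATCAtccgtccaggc
GAAA, 2 bases of any kind and GAAA, the core of the interferon-stimulated response element, was in 3.49% of all promoters, in 3.17% of those of genes tested and in 17 of 25 matched promoters of interferon-stimulated genes. In the Ifit1 window it lies on the other strand. In the Isg15 window a second match overlaps the one in capitals and begins in the lower-case letters before it.
Isg15 (chr4:156200865-156200894, minus strand): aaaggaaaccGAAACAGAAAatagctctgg
Ifit1 (chr19:34640794-34640823, plus strand): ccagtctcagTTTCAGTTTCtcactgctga
A match is a description of the letters and not a bound site.

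Amino acid stress genes were high. Of 31 genes of the integrated stress response and ATF4 targets, 17 rose (background 26.2%), 16 of them by more than 2-fold (background 9.56%). In the same list 2 fell (background 27.4%), and the median was 1.09. Atf4 itself lay within 1.5-fold, at 144 CPM (128 to 203) and 151 CPM (121 to 190). Nupr1, a stress-induced chromatin protein whose promoter window is printed above, had 1.72 CPM (0.964 to 2.06) on chow and 170 CPM (125 to 290) in the knockout on MCD (log2 fold change 6.78 ± 0.46, adjusted p = 1.20e-10). Fgf21, a hormone of the starved liver, rose from 1.49 CPM (0.870 to 5.22) to 16.1 CPM (9.16 to 20.7) (log2 fold change 2.74 ± 0.47, adjusted p = 4.51e-05). Asns, asparagine synthetase, rose from 1.03 CPM (0.121 to 10.8) to 29.1 CPM (22.4 to 45.7) (log2 fold change 3.63, and 5.00 without Cre chow mouse 6), Trib3, a pseudokinase, from 6.52 CPM (4.86 to 17.0) to 93.0 CPM (52.8 to 154), and Ddit3, which encodes CHOP, from 6.49 CPM (4.50 to 8.59) to 24.8 CPM (16.9 to 35.3). In Cre mice on MCD 24 of the 31 were higher than on chow (background 29.3%). In the direct test 7 were lower in the knockout on MCD (background 8.53%) and 2 higher, the last a share near the background of 8.06%. More chaperones of the endoplasmic reticulum fell than rose, with 17 of 27 lower (background 27.4%) and 6 higher, the last a share near the background of 26.2%. A fit of the males called 18 lower and one of the females 8. With total counts as scaling 6 were lower and 7 higher (median −0.17, against −0.59 with TMM), and without the low-mapping chow libraries 9 were lower. Hspa5, the main chaperone BiP, did not pass the test, at 979 CPM (872 to 2212) and 1042 CPM (902 to 1163), and Sdf2l1 fell from 35.9 CPM (22.8 to 78.8) to 7.58 CPM (5.57 to 9.73) (log2 fold change −2.47 ± 0.23, adjusted p = 1.26e-08). Mt1, a metallothionein that binds zinc, rose from 11 CPM (2.45 to 41.0) to 308 CPM (255 to 380) (log2 fold change 4.30 ± 0.47, adjusted p = 1.17e-07).

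Fetal liver genes were on in the knockout MCD livers. Of 14 genes listed, 11 passed the count filter, and 10 of these rose (background 26.2%), with a median log2 fold change of 4.26. The filter averaged all 22 libraries, so genes near 0 on chow could pass it only through livers where they were high. The share that rose may therefore partly reflect the filter. Afp (ENSMUSG00000054932, chr5:90490737-90508907, plus strand), alpha-fetoprotein, had 0.926, 1.89 and 3.37 CPM as the lowest, median and highest Cre chow liver and 63.6, 127 and 354 CPM in the knockout on MCD (log2 fold change 6.61 ± 0.58, adjusted p = 4.92e-09). Every knockout liver lay more than 10-fold above every healthy one. Cre mice on MCD had 173 CPM (40.7 to 389), and the direct test gave a log2 difference with an interval of −0.99 to 0.88 and an adjusted p of 0.959. Over the list, 3 of 11 were higher than in Cre mice on MCD in the direct test (background 8.06%) and the median log2 difference was −0.05. Igf2bp3, an RNA-binding protein of the fetal liver, did differ from them (log2 fold change 4.24, adjusted p = 3.86e-04). It was at no more than 3 counts in each Cre chow liver and had 3.49 CPM (0.973 to 10.7) in the knockout on MCD, at least 23.1-fold higher when set against 3 counts.

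More macrophage genes rose than fell. Of 30 macrophage and monocyte genes, 18 rose (background 26.2%) and 3 fell (median 1.08). The count that fell was 6 without the low-mapping chow libraries, Cre chow mouse 5 or knockout MCD mouse 1, and 5 without Cre chow mouse 6 or knockout MCD mouse 2. A fit of the males called 19 higher and 1 lower (median 1.48) and one of the females 13 higher and 7 lower (median 0.65), and 1 gene of the list passed the direct test of that difference (15 at an unadjusted p under 0.05). The share that fell in females was near that over all genes, 2958 of 14062. Gpnmb (ENSMUSG00000029816, chr6:49036546-49070929, plus strand), a glycoprotein of lipid-laden macrophages that is also a target of the TFE factors, had 0.0791, 0.274 and 0.677 CPM as the lowest, median and highest Cre chow liver and 55.2, 126 and 260 CPM in the knockout on MCD (log2 fold change 8.79 ± 0.62, adjusted p = 2.30e-10). Trem2, a receptor of lipid-associated macrophages, rose from 0.520 CPM (0.316 to 0.880) to 4.88 CPM (3.77 to 13.2) (log2 fold change 3.52 ± 0.37, adjusted p = 5.56e-08) and Cd63, a protein of late endosomes, from 4.50 CPM (2.69 to 5.90) to 247 CPM (182 to 304) (log2 fold change 5.83 ± 0.35, adjusted p = 2.00e-11). Adgre1, which encodes the pan-macrophage marker F4/80, read 17.9 CPM (12.7 to 24.1) and 14.5 CPM (7.51 to 18.3) and was not called higher. Clec4f, the marker of resident Kupffer cells, fell by 0.58 with overlapping groups, a call lost in 6 of the 12 fits that left out 1 library. The 4 markers of infiltrating macrophages summed to 3.52 CPM on chow (2.01 to 3.85), 17.8 CPM in the knockout on MCD (9.55 to 30.3) and 41.4 CPM in Cre mice on MCD (25.1 to 55.5), and all 4 rose in the knockout, led by Trem2. The 4 Kupffer cell markers summed to 377 CPM (257 to 434) on chow and 242 CPM (192 to 385) in the knockout on MCD. The part of cell numbers in these results was not tested. In the direct test 11 of the 30 macrophage genes were lower in the knockout than in Cre mice on MCD (background 8.53%) and 3 higher, the last a share near the background of 8.06%. Cd63 was one of the higher (log2 fold change 1.5, adjusted p = 0.00158), while Trem2 was lower (log2 fold change −1.16, adjusted p = 0.00977).

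Other inflammatory genes were mixed. Of 37 chemokine and cytokine genes listed, 29 passed the count filter. Of these 12 rose (background 26.2%) and 8 fell, the last a share near the background of 27.4%. With the stricter count filter, which tests fewer genes, 4 rose. Ccl2, which draws monocytes, rose from 0.655 CPM (0.241 to 1.03) to 3.52 CPM (1.35 to 4.88) (log2 fold change 2.33 ± 0.37, adjusted p = 1.80e-05). Of 14 neutrophil genes listed, 7 passed the count filter. Of these 4 rose (background 26.2%), 1 fell (background 27.4%) and 2 could not be placed. The filter averaged all 22 libraries, so genes near 0 on chow could pass it only through livers where they were high. As for the fetal liver genes, the share that rose may partly reflect the filter. S100a8 and S100a9 rose by 2.01 and 2.15 on the log2 scale. The average log2 level of the list, relative to Cre chow, was 1.47 in Cre chow mouse 5 and −0.88 to 0.73 in the other chow livers. It was 0.59 to 1.65 in the knockout MCD livers. The 4 neutrophil markers summed to 2.78 CPM (1.28 to 6.85) on chow and 14.8 CPM (7.43 to 23.2) in the knockout on MCD. Of 27 NF-kB, innate sensing and adhesion genes, 8 rose and 7 fell, shares near the backgrounds of 26.2% and 27.4%. Of 18 lymphocyte markers 3 fell (background 27.4%), 0 rose and 15 could not be placed. Those that fell were Cd4 of T cells, from 1.21 CPM (0.365 to 2.09) to 0.325 CPM (0.147 to 0.517) (log2 fold change −1.86 ± 0.50, adjusted p = 0.0035), and the antibody genes Igkc (log2 fold change −1.29 ± 0.45, adjusted p = 0.0202) and Jchain (log2 fold change −1.72 ± 0.48, adjusted p = 0.00466), the last pair named after their values were seen. The groups overlapped for all 3. The Cd4 call was lost without the low-mapping chow libraries and in females, and those of Igkc and Jchain were lost in males. Cd3e of T cells read 0.821 CPM (0.474 to 1.24) and 0.589 CPM (0.525 to 1.21).

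Interferon-stimulated genes lay below the healthy level. Of 35 genes, 27 fell (background 27.4%), 3 rose and the median was −0.85. A fit of the males called 14 lower and one of the females 29. Irf7, which amplifies the response, fell from 43.7 CPM (34.0 to 51.4) to 19.4 CPM (16.6 to 27.0) (log2 fold change −1.10 ± 0.12, adjusted p = 1.38e-07) and Ifit1, an RNA-binding effector, from 18.6 CPM (12.7 to 23.6) to 10.9 CPM (5.44 to 13.5) (log2 fold change −0.80 ± 0.25, adjusted p = 0.00893). Ifit1 did not pass the test in a fit of the males (−0.25, adjusted p = 0.531 in edgeR's test). Isg15, a ubiquitin-like effector, did not pass the test, at 11.4 CPM (7.71 to 13.3) and 8.55 CPM (6.35 to 12.0). Usp18, which restrains the response, rose from 12.4 CPM (7.10 to 12.9) to 43.2 CPM (36.7 to 50.1) (log2 fold change 1.98 ± 0.15, adjusted p = 9.25e-10). The list had a median of 0.49 in the knockout on chow and −0.20 in Cre mice on MCD against the same Cre chow livers. In the direct test 12 of 35 were lower in the knockout on MCD than in Cre mice on MCD (background 8.53%). Of 20 antigen presentation genes 9 fell (background 27.4%), among them H2-K1, a class I molecule (log2 fold change −1.05 ± 0.21, adjusted p = 2.38e-04), and the list median of −0.29 became 0.11 with total counts as scaling.

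**Figure D4:**
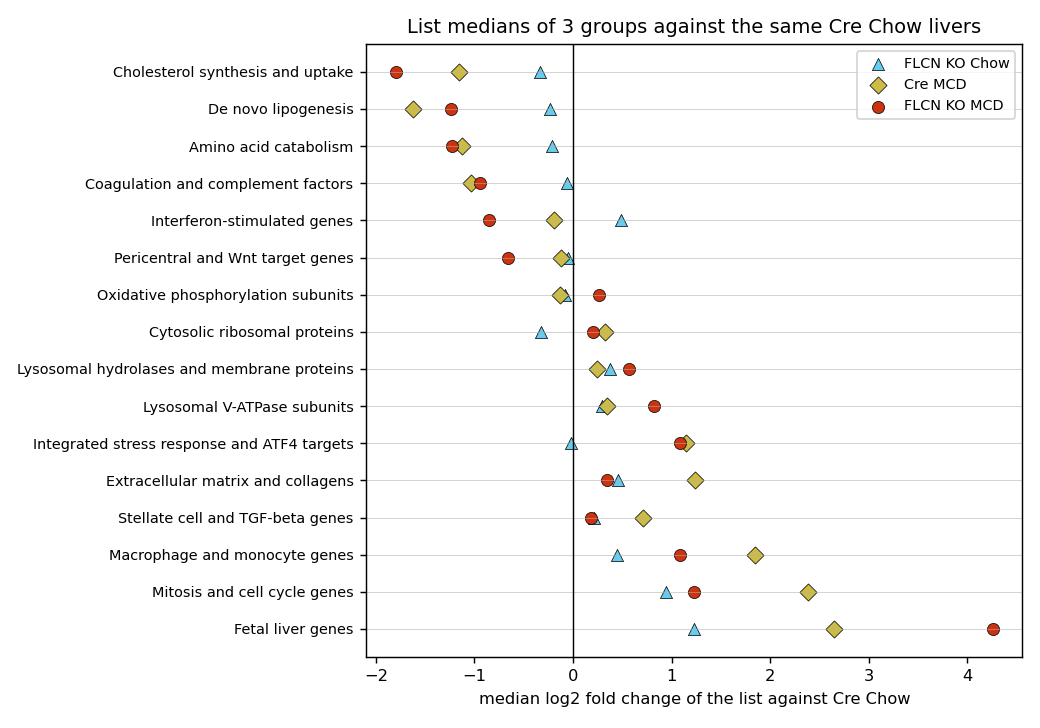
Median log2 fold change of 16 lists (x axis) in liver-Flcn-/- MCD, Cre MCD and liver-Flcn-/- chow livers, each against the same 6 Cre chow livers, so the 3 comparisons share their controls. The knockout on MCD lies near 0 for stellate and ribosomal genes, below Cre MCD for matrix, macrophage and mitosis genes, and beyond Cre MCD for cholesterol, interferon, pericentral and lysosomal genes.

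Most liver endothelial genes that moved were lower, relative to the typical gene. Of 26 tested 14 fell (background 27.4%) and 2 rose (background 26.2%), with a median of −0.33. A fit of the males called 6 lower, a share near that over all genes (3202 of 14062), and one of the females 18 (2958 of 14062). With total counts as scaling the median was 0.08, 3 fell and 6 rose. Gata4, a transcription factor of sinusoidal endothelium, fell from 16.6 CPM (12.8 to 21.5) to 8.39 CPM (6.41 to 9.68) (log2 fold change −1.02 ± 0.14, adjusted p = 2.36e-06), and the groups did not overlap. Stab2, a scavenger receptor of sinusoidal endothelium, was one of those that rose, from 43.4 CPM (33.4 to 49.8) to 71.8 CPM (56.9 to 79.7) (log2 fold change 0.74 ± 0.11, adjusted p = 1.28e-05). Of 17 bile duct and keratin genes 9 rose (background 26.2%). Cre chow mouse 5 stood apart on this list, with an average log2 level relative to Cre chow of 1.39, against −0.71 to 0.12 in the other 5 chow livers and 0.58 to 1.15 in the knockout MCD livers. Its 4 cholangiocyte markers summed to 47.4 CPM, against 10.7 to 16.7 CPM in the other chow livers, and without it 13 of the list rose. Krt8, a keratin of hepatocytes and ducts, rose by 0.42 with overlapping groups, and its call was lost in 2 of the 12 fits that left out 1 library, without the low-mapping chow libraries, with low mapping as a covariate and in a fit of the females. Krt19, the marker of bile duct cells, read 1.75 CPM (0.723 to 18.3) and 1.83 CPM (1.51 to 2.38) and did not pass the test (log2 fold change −1.23, and 0.23 without Cre chow mouse 5).

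Growth hormone and sex-biased genes had the lowest median of the 52 lists. Of 35 genes tested, 24 fell (background 27.4%), 22 of them by more than 2-fold (background 8.74%), and the median log2 fold change was −3.36. Ghr, the growth hormone receptor, fell from 643 CPM (516 to 725) to 202 CPM (148 to 222) (log2 fold change −1.69 ± 0.17, adjusted p = 3.37e-08) and Igf1, the hormone it induces, from 777 CPM (545 to 1004) to 300 CPM (184 to 355) (log2 fold change −1.45 ± 0.20, adjusted p = 2.40e-06). The major urinary proteins took 2.66 to 3.58% of all counts in the Cre chow males and 0.381 to 0.581% in the females, but 0.0329 to 0.0515% in the knockout MCD livers of either sex. Mup7 fell from 2811 CPM (14.5 to 7079) to 1.73 CPM (0.391 to 6.85) (log2 fold change −10.21, −10.81 without knockout MCD mouse 4 and −5.53 without the low-mapping chow libraries) and Serpina3k, a serpin from a multigene family, from 11497 CPM (4867 to 18280) to 533 CPM (298 to 604) (log2 fold change −4.54 ± 0.35, adjusted p = 9.13e-10). Major urinary protein genes are near-identical copies, so the level of a single one is uncertain. Cre mice on MCD were low as well, with 0.0384 to 0.104% of counts on these genes and a list median of −4.10 against Cre chow. In the direct test 3 of 35 on the list were higher in the knockout on MCD, near the background of 8.06%, and 0 were lower.

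The sexes lay closer together in the knockout on MCD than in Cre mice on chow. Counts of genes that differ by sex in Cre mice on MCD are not reported here. The closeness is therefore not shown to be particular to the knockout. In Cre mice on chow 931 of 14062 genes (6.62%) differed between 3 males and 3 females, against 8 (0.0569%) in the knockout on MCD, also 3 against 3. These 8 were Xist, the Y-linked Kdm5d and Uty, and Cyp2b13, Tafa2, F2r, Lgals3 and Slc22a29, all named after their values were seen. On chow, sex goes with the mapped share, as said above. Tested directly, the change from Cre chow to knockout MCD differed between males and females for 292 genes (2.08%), including 13 of 35 on the growth hormone and sex-biased list and 12 of 42 P450 genes.

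Mup20, a major urinary protein, averaged 4120 ± 1378 CPM (SD, n = 3) in Cre chow males and 94.5 ± 82.6 in females, and 232 ± 54.7 and 212 ± 20.8 in the knockout on MCD. Gstp1, a glutathione transferase, averaged 1487 and 151 CPM in chow males and females and 237 and 192 in the knockout. The pooled log2 fold changes of these genes, −3.25 and −1.93, went with the males. Within females they were 1.16 and 0.35 and did not pass the test, with adjusted p-values of 0.168 and 0.225, and without the low-mapping chow libraries they were 1.23 for Mup20 (adjusted p = 0.113 in edgeR's test) and 0.51 for Gstp1, which then passed the test in the other direction (adjusted p = 0.0365). Cyp4a14, a fatty acid hydroxylase under PPARA, ran the other way, with 10.9 CPM in chow males and 198 in females but 2158 and 2557 in the knockout. It rose in both sexes, by 7.63 and 3.69 on the log2 scale, as did Mt1 (6.21 and 3.55) and Cyp4a10 (2.71 and 0.89). Of the 10 genes on the list of Cyp4 fatty acid hydroxylases 5 fell (background 27.4%), and the median was −1.04. On that list 3 rose, a share near the background of 26.2%, and 5 rose without the low-mapping chow libraries. Hsd3b5, a male-biased steroid enzyme, fell to under 1 CPM in every knockout MCD liver from 148 CPM (5.29 to 597), a call that limma-voom did not make (log2 fold change −9.29, and −8.70 without Cre chow mouse 6). Mup20 was at −2.65 without the same mouse.

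**Figure D5:**
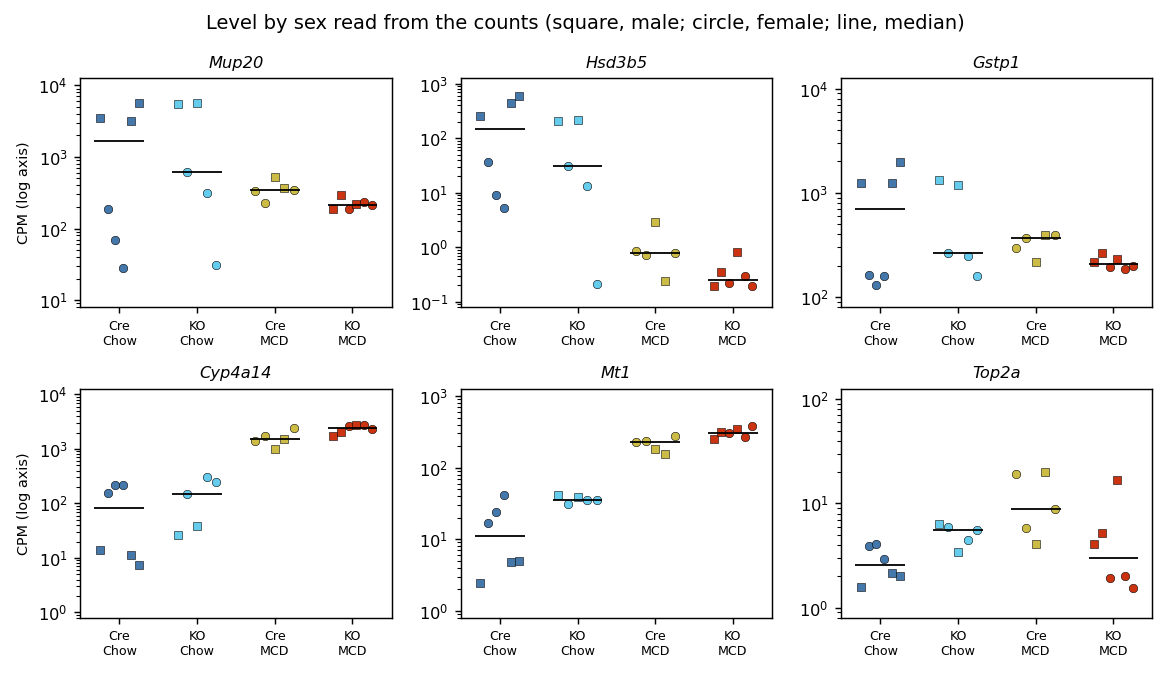
Level of 6 genes in each liver (y axis, CPM on a log axis; x axis, the 4 groups; squares, males; circles, females read from the counts; lines, group medians). Squares and circles lie apart in Cre chow livers for Mup20, Hsd3b5, Gstp1, Cyp4a14 and Mt1 and together in the 6 liver-Flcn-/- MCD livers, whereas for Top2a the 3 male knockout MCD livers lie above the 3 females.

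Proliferation genes differed among the knockout MCD livers. Of 40 mitosis and cell cycle genes, 14 rose (background 26.2%) and 26 could not be placed (background 18.4%), with a median of 1.22. The count of genes that rose was 2 without knockout MCD mouse 4 and 22 without knockout MCD mouse 6, 1 without the low-mapping chow libraries and 1 with limma-voom. Top2a, a topoisomerase of dividing cells, had 2.54 CPM (1.58 to 4.08) on chow and 3.02 CPM (1.53 to 16.7) in the knockout on MCD, Mki67 3.62 CPM (1.74 to 5.87) and 4.55 CPM (1.77 to 17.7), and Cdk1 1.61 CPM (1.03 to 3.13) and 2.77 CPM (1.27 to 9.68), and none of these passed the test. Without knockout MCD mouse 4 the log2 fold changes were 0.08 for Top2a and 0.07 for Mki67, against 0.91 and 0.72 with it. The average log2 level of the list, relative to Cre chow, was 1.23, 1.20 and 2.53 in male mice 1, 2 and 4 and −0.01, −0.07 and −0.45 in female mice 3, 5 and 6. A fit of the males called 33 of 40 higher (median 2.22) and one of the females 0 (median −0.53). In the females 0 were under 0.05 even at an unadjusted p. The difference itself reached an adjusted p under 0.05 for 0 of the 40 genes in edgeR's test and an unadjusted one for 34. Of 33 DNA replication genes, 20 rose (background 26.2%) and 4 fell. Pcna, the sliding clamp of replication, lay within 1.5-fold, at 21.2 CPM (18.2 to 21.4) and 19.3 CPM (16.7 to 24.9), and Tk1, a thymidine kinase, fell from 22.1 CPM (17.8 to 37.2) to 4.92 CPM (3.63 to 5.96) (log2 fold change −2.31 ± 0.23, adjusted p = 2.74e-08).

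Several genes with the largest changes belong to no list. Bex2, an X-linked gene best known from neurons, rose from 0.133 CPM (0.0677 to 0.548), at most 9 counts in a Cre chow liver, to 141 CPM (88.8 to 175) (log2 fold change 9.27 ± 0.50, adjusted p = 5.54e-12, and 9.87 without Cre chow mouse 4) and was higher than in Cre mice on MCD as well (log2 fold change 4.49, adjusted p = 9.29e-08). Areg, the growth factor amphiregulin, was at no more than 3 counts in every Cre chow liver and had 9.88 CPM (2.91 to 16.7) in the knockout on MCD, at least 50.5-fold higher when set against 3 counts. The fitted log2 fold change of Areg moved from 9.17 to 10.59 without Cre chow mouse 5. Dct, known from melanin synthesis, had 17.8 CPM (6.77 to 26.2) on chow and was at no more than 3 counts in every knockout MCD liver, at least 114-fold lower. The groups of 6 did not overlap for any of these genes.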

How the data were processed

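The authors trimmed single-end reads with Trimmomatic, aligned them to GRCm38 with STAR and counted them per gene with HTSeq (submitters' processing notes and methods), and the deposited values are these raw counts, without normalization. Versions, the annotation release and any collapsing of the molecular identifiers in the adapters are not given in the sources used here. Reads that fit several near-identical genes may be lost or misplaced. All 22 columns were matched to samples by their titles (0 were left over). Total counts per library are in the report. They set the precision, and 3 counts were taken as the floor, which covers counting error only.

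In R 4.3.3, edgeR 4.0.16 was fitted to all 22 libraries in 4 groups (mean count 10 or more, TMM, quasi-likelihood test, two-sided, Benjamini-Hochberg over 14062 genes). Intervals are 95% intervals from the same fit. The procedure was tested on simulated counts in which 200 of 14062 genes were changed, far fewer than were called here. It recovered 50% of 1.5-fold and 72% of 2-fold changes, with 4.82% false calls. Of unchanged genes 66.1% were placed within 1.5-fold. With so few changed genes it does not test TMM under changes as wide as those here.

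The groups, members, lists and rules were chosen with earlier results of these data known. The text names genes by rule: the first 4 tested of each list, the smallest p in each direction of each list, the largest changes with non-overlapping groups, and the most abundant genes within 1.5-fold. Rragc, Ppargc1a, Ctsl, Ctsd, Fgf21, Pnpla3, Mbl2, Cd36, Fabp1, Cyp2c54, Sult1e1, Sdf2l1, Mt1, Igkc and Jchain were chosen after their values were seen. Some genes are not reported here.

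Alternatives were limma-voom 3.58.1, DESeq2 1.42.0, size factors by RLE, no or a stricter count filter, the 12 libraries alone, the low-mapping libraries left out or as a covariate, sex as a covariate, the replicate number as a block, and each library left out. Total counts as scaling, fits of each sex and a fit without Cre MCD mouse 3 were added after seeing the data. The fits of each sex are contrasts within a single fit of all 22 libraries, split by group and sex. Positions come from GENCODE M21 on GRCm38.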

Additional observations from a re-analysis of the deposited data

Results flagged for a closer look

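Of the 282 groups of 6 values examined, nearly all for genes of the text, 17 held a sample far from the other 5, and chance flags about 1 in 20. Among Cre chow livers these were mouse 4 for Scd1 (24868 CPM), Rpl3 (267 CPM) and H2-K1 (1027 CPM), mouse 6 for Map1lc3b (87.6 CPM), Nfil3 (14.5 CPM) and Arntl (1.12 CPM), mouse 3 for Plin4 (2.41 CPM) and mouse 5 for Areg (0.0677 CPM). Among knockout MCD livers they were mouse 3 for Des (8.76 CPM) and Adgre1 (7.51 CPM), mouse 2 for Ghr (148 CPM), Lgr5 (1.89 CPM) and Cd3e (1.21 CPM), mouse 5 for Hexa (159 CPM) and Igf1 (184 CPM), mouse 1 for Igkc (15.3 CPM), and mouse 4 for Hsd3b5 (0.803 CPM). Cre chow mouse 6 lay apart in 2 clock genes, with Arntl far below the group median of 26.3 CPM.

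The change from Cre chow to knockout MCD differed between males and females, by an interaction test, for 5 genes of the text. The male minus female log2 difference was 1.82 for Cyp4a10, 3.94 for Cyp4a14, 2.65 for Mt1, −2.99 for Gstp1 and −5.31 for Mup20. The male chow libraries are also those of low mapped share, so sex and mapping cannot be told apart here.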

How the results depend on the processing

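There were 22 alternatives that were not added later. Of the 109 called genes in the text, 96 were called with the same sign in each of these that tested them. The other 13 lost the call or its sign in at least 1. A few genes of the text were not tested with the stricter count filter, in the 12 libraries alone or with the replicate block. With TMM replaced by total counts as scaling, chosen after seeing the data, 7713 genes were higher and 1665 lower. Leaving out 1 library at a time gave 3475 to 3625 higher genes, 3651 to 3786 lower genes and 4874 to 5090 within 1.5-fold. The limit decides the last count, with 1608 genes within the tighter limit tried and 9067 within 2-fold. With total counts as scaling, the log2 fold changes of genes near 0 changed sign and passed the test, at 0.24 for Sdha, 0.31 for Apob, 0.32 for Kng1, 0.37 for mt-Nd4, 0.38 for Eef1a1, 0.37 for Axin2 and 0.41 for Pcna. The calls of Acacb, Hnf4a, C3, Cyp2e1, Clec4f, Ifit1 and Igkc were lost with that scaling. Mup20 and Gstp1 changed sign without the 5 low-mapping chow libraries (1.23 and 0.51, the latter past the test with an adjusted p of 0.0365 in edgeR's test), with low mapping as a covariate (0.91 and 0.32) and in females alone (1.16 and 0.35). Leaving out 1 library ended 6 of the calls named. The Apoe call was lost without any 1 Cre chow mouse and without knockout MCD mouse 2, 3, 4 or 6 (adjusted p 0.0522 to 0.127 in edgeR's test). The Clec4f call was lost without Cre chow mouse 2, 3 or 4 or knockout MCD mouse 3, 4 or 5 (0.0502 to 0.0594), and that of Cyp2e1 without Cre chow mouse 5 or 6 or knockout MCD mouse 1 or 2 (0.0561 to 0.0635). Plin2 was lost without Cre chow mouse 2 or knockout MCD mouse 4 (0.0502 and 0.0632), and Krt8 without knockout MCD mouse 2 or 4 (0.0731 and 0.0514). Igkc was lost without Cre chow mouse 4 (0.0764). In the fits of each sex, 3 against 3 within a single fit of all 22 libraries, some calls were not made. In females these were Rpl3, Hnf4a, Pemt, Plin2, Cyp2e1, Krt8, Cd4, Mup20 and Gstp1 (Gstp1 and Mup20 with the opposite sign). In males they were Acacb, Clec4f, Ifit1, Igkc and Jchain, and Apoe was called in neither sex. Apart from total counts and these limits, the counts of higher, lower and within-limit genes over all genes tested stayed within 1.5 times, but counts per list did not always. Some log2 fold changes of called genes moved by more than 1.5-fold without the low-mapping chow libraries while the call held, among them Saa2 (−2.82), Slco1a1 (−6.41), Mup7 (−5.53), Hsd3b5 (−5.59), Cyp4a14 (3.57) and Asns (6.17). Without Cre MCD mouse 3, chosen after seeing the data, 15 of the matrix genes and 8 of the stellate genes were lower in the knockout on MCD than in Cre mice on MCD, against 26 and 12 with it.

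The replicate numbers do not pair the mice: same-numbered mice of the 2 groups had a mean correlation of −0.0353 after removing group means (−0.234 to 0.0928). With the replicate number as a block, 3550 genes were higher, 3603 lower and 5027 within 1.5-fold, and Flcn, at −0.29, passed the test (adjusted p = 0.0372 in edgeR's test). At 15276157 to 20706657 counts per library, 15 of 18 lymphocyte markers could not be placed.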
